A study of Mus musculus with 13 samples.

Results

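Tumors of obese and lean mice that received no HMB were compared gene by gene. The members were 6 arrays of the 13 in the series, chosen by their titles: 3 tumors of obese mice (DIO, for diet-induced obesity) and 3 tumors of non-obese mice (control), both unsupplemented. All tumors came from male C57BL/6 mice injected under the skin of the flank with Panc02, a mouse line of pancreatic ductal adenocarcinoma. Control mice ate a low-fat diet and DIO mice a high-fat diet for several weeks before the injection, with 1 mouse and 1 tumor behind each array. The other 7 arrays, control + HMB (3) and DIO + HMB (4), came from mice given β-hydroxy-β-methylbutyrate, a leucine metabolite, in the same diets. They entered the estimate of the spread and 1 check of the diet difference in other mice. Mice of the study also received gemcitabine, a chemotherapy, or its vehicle, and the labels do not say which was given to the mice on the arrays. A single cell line injected under the skin limits the model: the tumor cells are 1 line, the site is not the pancreas, and each array reads tumor cells and host cells together.

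Obesity surrounds a tumor with more fat tissue, more insulin and more growth factors, and large solid tumors often outgrow their blood supply. Cells short of oxygen stabilize the transcription factor HIF, which turns on genes of glycolysis, vessel growth and collagen modification. Cells that fold many secreted proteins or lack amino acids start the unfolded protein response and the transcription factor ATF4, which turn on chaperones, amino acid transporters and stress regulators. T cells and natural killer (NK) cells are the lymphocytes that can kill tumor cells, and pancreatic tumors are known for holding few of them.

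Values are log2 intensities after RMA, so a difference of 1 is a doubling. Of 22180 genes, 0 passed an adjusted p of 0.05 between DIO and control, and the lowest adjusted p was 0.32. At an unadjusted p under 0.05 stood 1717 genes, or 7.74% of all genes: 955 (4.31%) were higher and 762 (3.44%) lower in DIO. With each array centered on its median, 477 were higher and 875 lower, so the balance of directions depended on the scaling. All 3 DIO values lay above all 3 control values for 1339 genes (6.04%) and below them for 1097 genes (4.95%). Over all genes 53.8% had a positive difference and the median difference was 0.02. A difference of 1 or more was found for 73 genes in the higher and 35 in the lower direction, and the median standard error (SE) was 0.19. No gene named below passed the adjusted threshold, so each is described by its 6 values, and "higher" and "lower" refer to those values. An exact permutation test of a single gene between 3 and 3 arrays cannot go below p = 0.1.

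The arrays correlated at r = 0.981 to 0.985 within control, 0.979 to 0.986 within DIO and 0.980 to 0.985 between both, so the groups were no more alike within than between. Array width, meaning the SD over all genes of an array, was 2.51 to 2.54 in control and 2.51 to 2.60 in DIO, with DIO replicate 2 at 2.51. Krt8 (8.93 to 9.28 in control, 9.16 to 9.62 in DIO) and Krt18 (9.31 to 9.74 and 9.59 to 9.97), keratins of simple epithelia, were bright in all 6 tumors. Other duct markers, Krt19 (3.28 to 5.06 over the 6 arrays), Krt7 (3.51 to 5.62) and Epcam (4.10 to 4.45) were dim, against array medians of 3.65 to 3.75.

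Genes named here for low p or large difference had to show no overlap and an unadjusted p under 0.05. Their lack of overlap was a condition and not a result. Among the genes with the lowest p in the higher direction were an adhesion channel, a Notch ligand and a phospholipid enzyme. Gja1, whose product connexin 43 forms gap junctions, read 6.91, 7.21 and 7.20 in the control replicates and 7.96, 7.99 and 8.08 in the DIO replicates. The gap between the groups was wide, and the DIO values were close together. The difference was 0.90 ± 0.17 (SE), 1.87-fold, with a limma p of 0.000162 and an adjusted p of 0.33. Jag1, a membrane ligand that activates Notch receptors on neighboring cells, was at 7.27, 7.07 and 7.20 in control and at 8.32, 7.88 and 7.73 in DIO. DIO replicate 1 was the highest and the groups did not overlap. Its difference was 0.80 ± 0.15 (SE), with an adjusted p of 0.33. Lpcat4, an acyltransferase that rebuilds membrane phospholipids, read 8.73, 8.86 and 8.74 in control against 9.57, 9.44 and 9.43 in DIO. Both groups were tight, with SDs of 0.07 and 0.08, and the difference was 0.70 ± 0.13 (SE).

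Kctd21, of a family of adaptors for cullin ubiquitin ligases, had the lowest p of the named genes in the higher direction (6.45e-05, adjusted p 0.32). Its values were 3.81, 3.75 and 4.21 in control and 5.33, 5.08 and 5.17 in DIO, a 2.41-fold difference. The control values were close to the array median, so the gene was dim in control tumors and well above that level in all DIO tumors. Trp53rka, a kinase of the KEOPS complex that modifies transfer RNA, read 4.51, 4.24 and 4.90 in control and 5.77, 6.22 and 5.41 in DIO. Its near copy Trp53rkb read 4.27, 3.91 and 4.01 in control and 4.28, 3.36 and 4.56 in DIO, and the probes may not keep the pair apart. Trim30a, an interferon-induced ubiquitin ligase of a cluster of similar genes, read 3.43, 3.99 and 3.20 in control and 5.13, 5.28 and 4.70 in DIO, a difference of 1.50 ± 0.27 (SE). Its neighbor in the family, Trim30d, also did not overlap between groups (4.51 to 5.13 in control, 5.31 to 5.87 in DIO, difference 0.70). Tbc1d8b, predicted to switch off Rab proteins of vesicle traffic, and Banp, a nuclear DNA-binding protein, were higher by 0.67 ± 0.13 and 0.76 ± 0.15 (SE).

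The lowest p in the whole named set belonged to a gene that was lower in DIO. Pcdh17, a protocadherin of cell-to-cell adhesion, read 5.93, 6.11 and 5.72 in control and 4.83, 5.14 and 5.03 in DIO. The lowest control tumor was above the highest DIO tumor by more than the SD of either group (0.20 and 0.16), and the difference was -0.92 ± 0.15 (SE), with a limma p of 3.99e-05 and an adjusted p of 0.32. Xcl1, the chemokine lymphotactin made by CD8 T cells and NK cells, read 6.67, 6.82 and 7.08 in control and 5.67, 6.10 and 5.49 in DIO. All 3 obese tumors were lower, with a difference of -1.10 ± 0.19 (SE) and an adjusted p of 0.32. Sorbs3, an adaptor that ties vinculin to the cytoskeleton, read 8.57, 8.07 and 8.46 in control and 7.53, 7.61 and 7.50 in DIO. The DIO values were within an SD of 0.06, and the difference was -0.82 ± 0.20 (SE).

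Metabolic genes were also among the lower ones. Etfb, a subunit of the flavoprotein that carries electrons from fatty acid oxidation, read 7.87, 8.08 and 7.92 in control and 7.34, 7.56 and 7.20 in DIO (difference -0.59 ± 0.14, SE). Galc, the lysosomal enzyme that breaks down galactosylceramide, was at 7.49, 7.49 and 7.44 in control and at 6.87, 7.11 and 6.87 in DIO, a difference of -0.52. Tlcd1, which influences membrane lipid composition, was among the brightest named genes at 11.15 to 11.31 in control and 10.41 to 10.72 in DIO. Tle2, a corepressor of the Groucho family, read 6.34, 6.49 and 6.15 in control and 5.67, 4.66 and 5.44 in DIO, with DIO replicate 2 far below the rest. Abhd17a, a depalmitoylase, was lower by 0.60 on the log2 scale. These 5 genes were also chosen for having no overlap, and their adjusted p ran from 0.56 to 0.59.

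**Figure D1:**
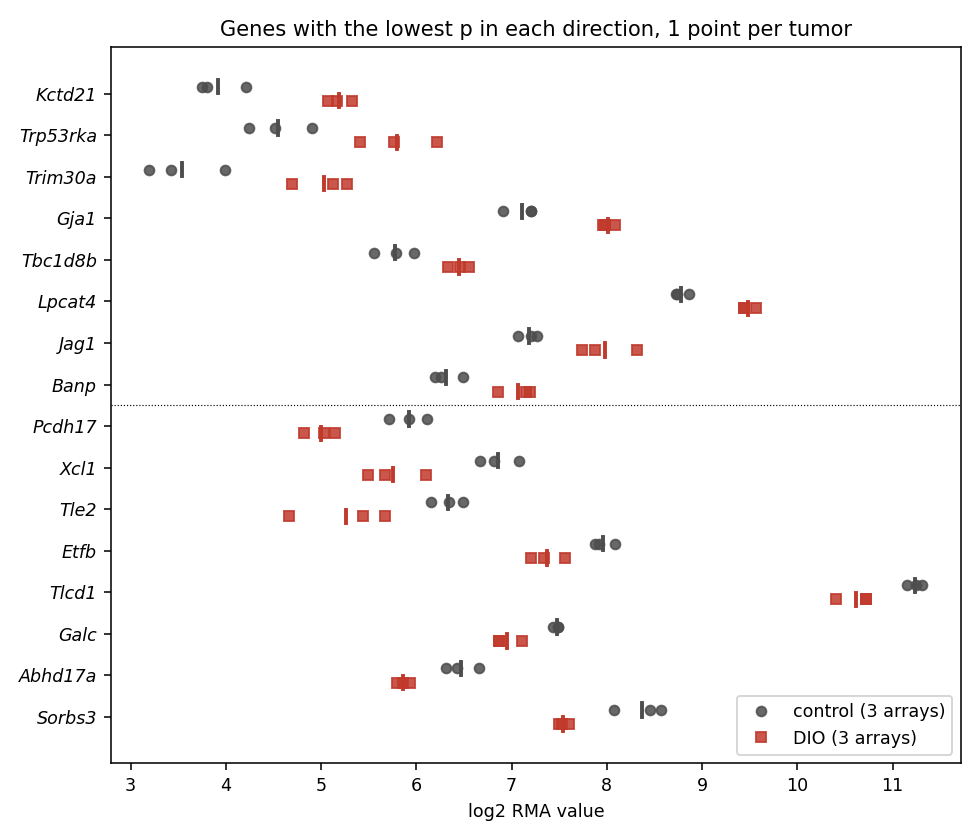
Log2 RMA values (x axis) of 16 genes, the 8 with the lowest p in each direction among genes without overlap and with a mean of at least 5 in the higher group (predicted genes and large families left out), those higher in DIO above the dotted line and those lower below it. Circles are the 3 control tumors, squares the 3 DIO tumors and bars the group means, and no gene shows overlap between its groups because the choice required it.

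Further genes were named for the size of their difference, and some had a wide spread in 1 group. Egln3, an oxygen-sensing hydroxylase that HIF itself turns on, had the largest of the named genes: 4.51, 3.84 and 4.65 in control and 5.57, 5.53 and 7.45 in DIO. DIO replicate 3 was well above the other obese tumors, the difference was 1.85 ± 0.62 (SE), and the adjusted p was 0.59. Plxdc2, a plexin domain receptor, read 6.32 to 6.74 in control and 7.01 to 8.08 in DIO (difference 1.18). Per1, a core clock gene, read 7.97, 7.30 and 7.84 in control and 8.81, 8.38 and 9.38 in DIO (difference 1.15). Tsc22d3, a leucine zipper protein induced by glucocorticoids, read 4.34, 3.49 and 4.14 in control and 5.35, 4.59 and 5.46 in DIO (difference 1.14).

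In the lower direction the largest among the named genes was that of Adgrf1, an adhesion G protein-coupled receptor, at 8.13, 7.66 and 8.07 in control and 6.49, 6.32 and 7.11 in DIO (difference -1.31 ± 0.39, SE). Mettl7a3, of a methyltransferase family with near copies, read 5.71, 4.31 and 5.04 in control and 3.73, 3.91 and 3.62 in DIO, so the control tumors were the more scattered. Ucma, a cartilage matrix protein, and Gpr141b, an orphan receptor, were lower by 1.27 and 1.20. Sorbs2, a relative of Sorbs3, read 6.61, 6.24 and 7.29 in control and 6.16, 5.59 and 4.98 in DIO (difference -1.14). Slc14a1, a urea transporter, was lower by 1.06, with values of 5.53 to 6.05 and 4.37 to 5.24.

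Most targets of HIF were higher in the obese tumors. Of 21 measured members of the hypoxia list, 18 were higher in DIO, 7 of them at an unadjusted p under 0.05. Of the 3 lower members 0 had such a p. For 8 higher members the groups did not overlap (6.04% of all genes did so in this direction). The median difference was 0.49, against 0.02 over all genes, and 33.3% of members were at an unadjusted p under 0.05, against 7.74%. The list level of an array, the median over members of the deviation from each gene's mean over the 6 arrays, was -0.15, -0.28 and -0.10 in control and 0.24, 0.16 and 0.21 in DIO. All 3 DIO tumors thus lay above all 3 control tumors, although the lean tumor control + HMB replicate 2, at 0.33, lay above all 3 DIO tumors. The list median was 0.37 to 0.52 when single arrays were left out, and 0.39 with array width in the model.

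Enzymes that modify collagen were among these members. P4ha1, a prolyl hydroxylase that collagen needs to fold, read 7.63, 7.53 and 7.80 in control and 8.15, 8.31 and 8.09 in DIO. The tumors separated without overlap, with a difference of 0.53 ± 0.15 (SE) and an adjusted p of 0.59. Plod2, the collagen lysyl hydroxylase, was at 7.27, 7.17 and 7.18 and at 7.59, 7.68 and 7.55, a smaller difference (0.40 ± 0.19, SE) with SDs of 0.06 and 0.07. Adm, the vasodilator peptide adrenomedullin, read 4.13, 4.31 and 3.45 in control and 4.40, 5.52 and 6.28 in DIO. DIO replicate 1 was barely above the highest control tumor, and the difference was 1.44 ± 0.52 (SE).

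Vegfa, the main vessel growth factor, overlapped between the groups: 7.95, 8.68 and 8.43 in control and 8.60, 8.57 and 9.43 in DIO (difference 0.51 ± 0.25, SE). Slc2a1, the glucose transporter GLUT1, also overlapped (7.51 to 8.25 and 8.03 to 8.49, difference 0.49). Bnip3, which removes mitochondria in low oxygen, read 5.23, 5.74 and 5.90 in control and 6.40, 6.06 and 6.07 in DIO, with no overlap and a difference of 0.56 ± 0.24 (SE). Bhlhe40, a repressor linking hypoxia and the clock, and Stc2, a secreted glycoprotein, were higher by 0.49 and 0.59 without overlap. Slc16a3, the lactate exporter MCT4, read 4.10, 4.10 and 4.54 in control and 4.81, 4.80 and 4.86 in DIO (difference 0.58 ± 0.24, SE). It belongs to the glycolysis list, where 14 of 16 measured members were higher, with a median of 0.23 (0.12 with array width in the model). At an unadjusted p under 0.05 was 1 member of that list (6.25%, no more than the 7.74% of all genes). Pfkl, the liver form of phosphofructokinase, was the other member of that list without overlap (6.89 to 7.14 against 7.14 to 7.47). The list overlaps the hypoxia list in Slc2a1.

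Promoter sequences are shown for 2 of these HIF targets because most members share a motif. HIF binds the core ACGTG or GCGTG, searched on both strands in the 250 bases before the start of each gene in RefSeq (GRCm38.p6). A promoter was at hand for 15 of the 21 measured members, and 14 of the 15 (93.3%) held a core, as did 47.8% of 16990 measured genes. Capitals mark the matches, which appear as their reverse complement where they lie on the other strand, and the 2 cores overlap where CACGTG reads the same on both strands. The Egln3 window is chr12:54203875-54204124 on the minus strand with 1 match, and the Bnip3 window chr7:138909507-138909756 on the minus strand with 5.
Egln3: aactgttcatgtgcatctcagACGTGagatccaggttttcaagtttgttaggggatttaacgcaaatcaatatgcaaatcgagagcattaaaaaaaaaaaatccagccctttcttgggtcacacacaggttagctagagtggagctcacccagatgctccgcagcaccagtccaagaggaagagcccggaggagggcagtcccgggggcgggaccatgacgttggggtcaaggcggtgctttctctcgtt
Bnip3: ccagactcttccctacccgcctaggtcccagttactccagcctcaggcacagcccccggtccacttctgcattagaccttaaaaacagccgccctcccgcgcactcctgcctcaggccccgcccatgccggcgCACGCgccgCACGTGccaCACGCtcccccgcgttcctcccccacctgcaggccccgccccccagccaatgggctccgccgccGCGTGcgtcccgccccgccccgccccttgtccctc
A match in letters is a description of the window and not a binding site.

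Genes of the unfolded protein response were higher by small amounts with little spread. Of 17 measured members 14 were higher, 6 at an unadjusted p under 0.05 (35.3%, against 7.74% of all genes) and 8 without overlap (6.04% of all genes did so in this direction), with a median of 0.25. Without control replicate 1 the median was 0.15, and with array width in the model 0.18. List levels were -0.17, -0.06 and -0.02 in control and 0.15, 0.10 and 0.08 in DIO, which do not overlap. Herpud1, a membrane protein of the pathway that clears misfolded proteins, read 9.30, 9.27 and 9.28 in control and 9.97, 9.59 and 9.97 in DIO. The control tumors were nearly identical (SD 0.02), and the difference was 0.56 ± 0.15 (SE), with a limma p of 0.00227 and an adjusted p of 0.59. Hspa5, the chaperone BiP, read 8.03, 8.19 and 8.29 against 8.45, 8.47 and 8.52, a difference of 0.31 ± 0.11 (SE). Xbp1, the transcription factor of the IRE1 branch, read 8.28, 8.05 and 8.56 in control and 8.92, 8.69 and 8.58 in DIO, so DIO replicate 3 was just above the highest control tumor. Creld2, Dnajb9 and Sec61b, a chaperone-like protein, a co-chaperone and a translocon subunit, were higher by 0.37, 0.45 and 0.35 without overlap. Calr (calreticulin, 0.25) and Hyou1 (a chaperone, 0.25) also did not overlap but had an unadjusted p of 0.0567 and 0.114.

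Genes for attaching sugar chains to asparagine, a step in making secreted proteins, were higher as a list as well. Of 31 measured members 26 were higher, 8 at an unadjusted p under 0.05 (25.8%, against 7.74% of all genes), and 6 did not overlap (6.04% of all genes in this direction), with a median of 0.19. Stt3a, the catalytic subunit of the oligosaccharyltransferase, read 9.73, 9.94 and 9.81 in control and 10.23, 10.07 and 10.23 in DIO (difference 0.35 ± 0.12, SE). Alg9 and Alg10b, glycosyltransferases that build the sugar precursor, were higher by 0.40 and 0.39, and Alg12, Alg13 and Dpagt1 by 0.45, 0.41 and 0.47 with overlap. Mgat2, which starts the second antenna in the Golgi, read 8.48, 8.43 and 8.45 in control against 9.11, 8.54 and 8.86 in DIO, and Lman1, the cargo receptor for glycoproteins, was higher by 0.30. List levels were -0.10, -0.13 and -0.08 in control and 0.19, -0.05 and 0.16 in DIO. DIO replicate 2, the narrowest DIO array, was the lowest obese tumor, and with array width in the model the list median was 0.09. Without DIO replicate 2 it was 0.35.

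The list of ATF4 and mTORC1 targets, called the ATF4 list here, leaned higher with more spread. Of 24 measured members 23 were higher (95.8%, against 53.8% of all genes), 6 at an unadjusted p under 0.05 and 5 without overlap (7.74% and 6.04% of all genes), with a median of 0.30. Stc2 and Ddit4 (an inhibitor of mTORC1, 7.12, 6.93 and 7.25 against 8.39, 7.35 and 8.22, difference 0.89) belong to this list and to the hypoxia list. Trib3, a pseudokinase that restrains AKT and ATF4, read 4.72, 5.42 and 5.50 in control and 5.76, 5.79 and 5.87 in DIO. The obese tumors were within an SD of 0.06 and above all lean tumors, and the difference was 0.60 ± 0.22 (SE). Slc7a11, the cystine importer, read 4.90, 5.14 and 5.91 in control and 6.44, 5.82 and 6.97 in DIO, with overlap and a difference of 1.10 ± 0.45 (SE). Asns, asparagine synthetase, overlapped too (0.54 ± 0.26, SE), as did Sesn2, a sensor of leucine (0.59). Atf4 itself differed by 0.17 ± 0.16 (SE). List levels were -0.30, -0.16 and 0.00 in control and 0.43, -0.12 and 0.34 in DIO, so DIO replicate 2 lay among the lean tumors. The median was 0.53 without DIO replicate 2, 0.20 without DIO replicate 1 and 0.16 with array width in the model.

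Chac1 and Nupr1 are shown as members whose promoters hold the ATF4 motif. Chac1, which degrades glutathione, read 5.02, 5.17 and 5.10 in control and 5.82, 5.34 and 5.50 in DIO (difference 0.46 ± 0.26, SE). Nupr1, a stress-induced chromatin protein, read 8.50, 8.53 and 8.46 in control and 8.92, 8.80 and 8.60 in DIO (difference 0.28 ± 0.12, SE). The motif TGATGNAA was searched on both strands of the same windows, and it was found in 6 of 20 members with a promoter (30.0%), against 3.4% of 16990 measured genes. Neither motif holds the other. The windows are chr2:119350992-119351241 on the plus strand for Chac1 and chr7:126625471-126625720 on the minus strand for Nupr1, with 1 match each in capitals, read on the other strand.
Chac1: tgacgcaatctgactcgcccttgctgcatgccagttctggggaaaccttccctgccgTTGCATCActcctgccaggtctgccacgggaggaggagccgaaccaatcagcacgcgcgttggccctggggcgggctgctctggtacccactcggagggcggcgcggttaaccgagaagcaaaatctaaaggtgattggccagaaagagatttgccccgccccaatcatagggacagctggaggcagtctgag
Nupr1: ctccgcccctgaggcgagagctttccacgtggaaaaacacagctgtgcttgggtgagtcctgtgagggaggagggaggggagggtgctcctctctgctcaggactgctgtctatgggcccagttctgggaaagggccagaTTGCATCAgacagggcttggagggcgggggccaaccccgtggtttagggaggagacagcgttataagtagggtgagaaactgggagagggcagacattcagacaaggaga
As above, these letters describe the window only.

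**Figure D2:**
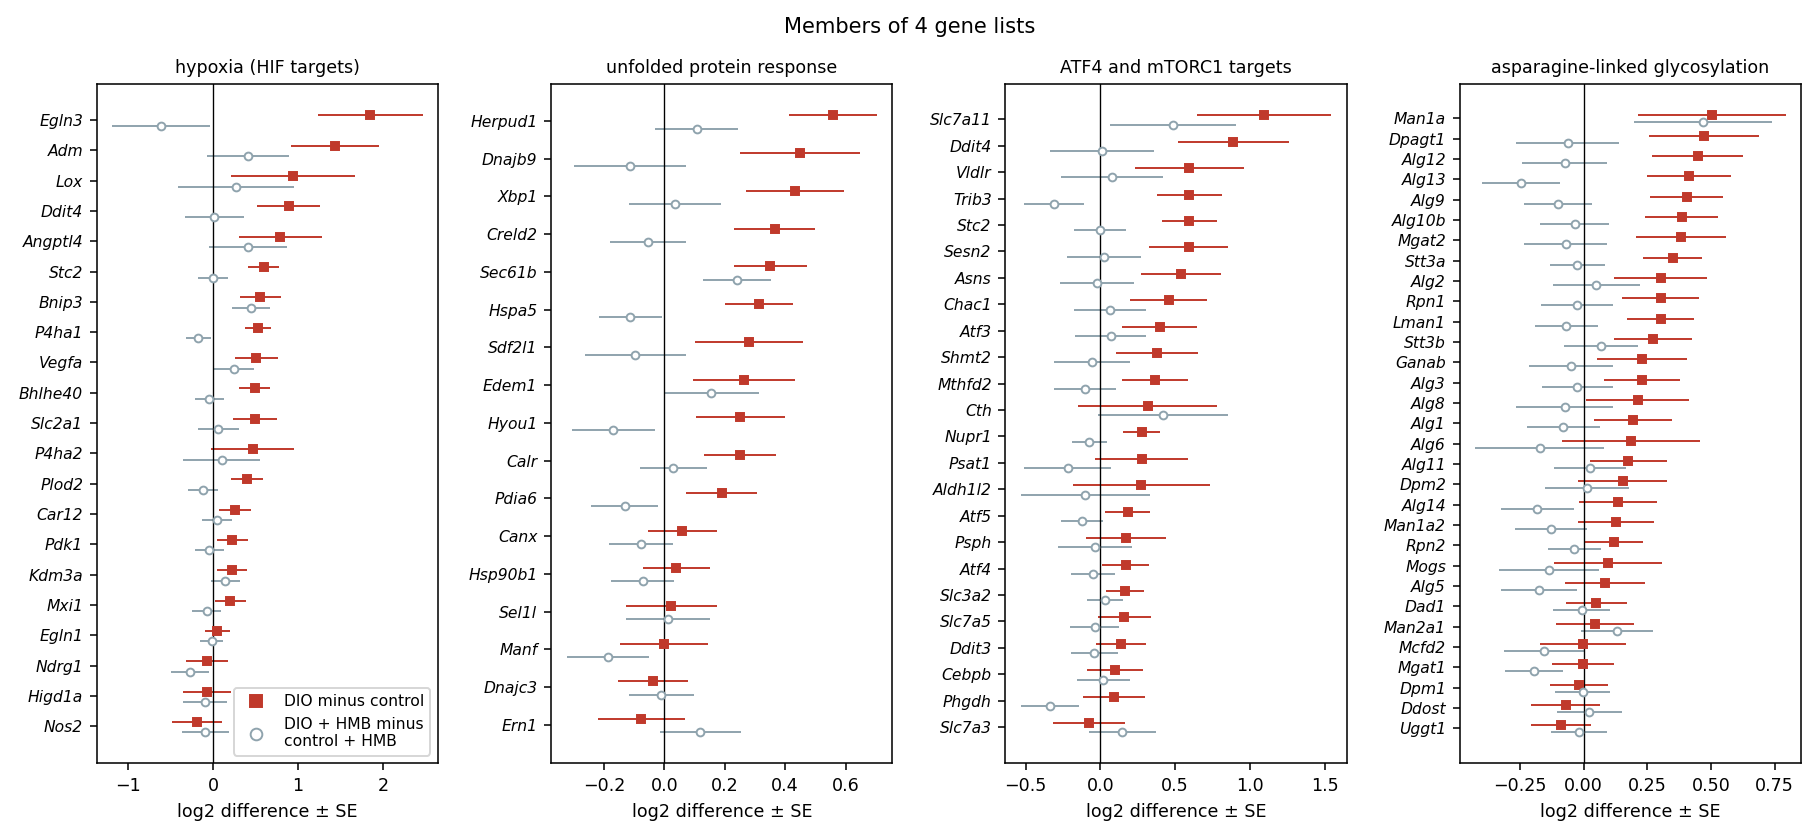
Log2 difference ± SE (x axis) of each measured member of the hypoxia, unfolded protein response, ATF4 and asparagine-linked glycosylation lists. Filled squares are DIO minus control and open circles DIO + HMB minus control + HMB, and the squares lie to the right of 0 for 18 of 21, 14 of 17, 23 of 24 and 26 of 31 members.

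p53 targets divided by member. Of 16 measured members 10 were higher, 6 of them at an unadjusted p under 0.05, while 0 of the 6 lower members had such a p, and the median was 0.18. The share at that p was 37.5%, against 7.74% of all genes. Cdkn1a, the cell cycle inhibitor p21, read 7.28, 7.38 and 7.78 in control and 8.33, 8.40 and 7.81 in DIO, a difference of 0.70 ± 0.28 (SE). DIO replicate 3 was only just above the highest control tumor. Mdm2, the ubiquitin ligase that removes p53, read 9.64, 9.53 and 9.35 against 10.03, 9.69 and 10.14 (difference 0.45 ± 0.15, SE). Aen, a nuclease, Ccng1, cyclin G1, and Eda2r, a death domain receptor, were higher by 0.48, 0.40 and 0.51, all without overlap. Fas, the death receptor, ran the other way (6.35, 6.16 and 6.65 in control, 6.05, 6.34 and 4.99 in DIO, with a limma p of 0.0647 and an adjusted p of 0.65).

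Genes of proliferation leaned the same way, nearly all with overlap. Of 28 measured cell cycle genes 23 were higher, with a median of 0.23. At an unadjusted p under 0.05 were 0 members, against 7.74% of all genes. Without overlap were 1 higher and 1 lower member (6.04% and 4.95% of all genes). The median was 0.00 with array width in the model, 0.11 without control replicate 1 and 0.37 without DIO replicate 2. Mki67, the gene of the proliferation marker Ki-67, read 9.51, 9.69 and 9.75 in control and 9.99, 9.77 and 10.14 in DIO. DIO replicate 2 was close to the highest control tumor, and the difference was 0.32 ± 0.16 (SE) with an adjusted p of 0.66. Top2a, a topoisomerase of dividing cells, differed by 0.23 ± 0.18 (SE). List levels were -0.32, -0.09 and 0.05 in control and 0.19, -0.20 and 0.32 in DIO.

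In the insulin and IGF list the members at an unadjusted p under 0.05 were 2 binding proteins. Of 29 measured members 23 were higher, and 2 (6.9%) were at that p, no more than the 7.74% of all genes. Without overlap were 7 higher and 0 lower members (6.04% and 4.95% of all genes). List levels were -0.05, -0.04 and -0.11 in control and 0.02, 0.04 and 0.08 in DIO, small values that did not overlap. The median was 0.14, and 0.09 with arrays centered on their median. Igfbp3, the main carrier of IGF-1, read 9.25, 8.33 and 8.94 in control and 9.89, 10.17 and 9.29 in DIO, a difference of 0.94 ± 0.29 (SE) and an adjusted p of 0.59. Igfbp5, a binding protein held in matrix, read 7.62, 7.37 and 6.50 in control and 7.81, 9.02 and 7.71 in DIO. Both were above control in all obese tumors. Eif4ebp1, a translation repressor downstream of mTORC1, was 8.05, 8.05 and 8.35 in control and 8.49, 8.46 and 8.50 in DIO. The receptors differed by less: Insr differed by 0.33 ± 0.17 and Igf1r by 0.04 ± 0.19 (SE), and Igf2, a ligand, by 0.29 ± 0.14, all with overlapping values.

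Subunits of the respiratory chain were lower in 19 of 30 measured members, with a median of -0.08 that was -0.01 without control replicate 3 and -0.04 without DIO replicate 1 or with array width in the model. Ndufa1, of complex I, read 7.99, 7.75 and 8.19 in control and 7.24, 7.71 and 7.66 in DIO (difference -0.44 ± 0.15, SE), and Uqcrh, of complex III, was lower by 0.38 with overlap. These were the 2 members at an unadjusted p under 0.05 (6.67%, no more than the 7.74% of all genes).

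Most T cell genes were lower in the obese tumors. Of 17 measured markers 15 were lower, and the median was -0.43. At an unadjusted p under 0.05 were 2 members, both lower (11.8%, against 7.74% of all genes and 3.44% in this direction). A count of 2 is too small to set the list apart from all genes. In the lower direction 3 had no overlap (4.95% of all genes). In bulk tumors, fewer T cells and less of each RNA per T cell cannot be told apart. Cd3e, a chain of the T cell receptor complex, read 9.16, 9.0 and 9.35 in control and 8.43, 8.61 and 7.95 in DIO. All 3 obese tumors were below all 3 lean tumors, and the difference was -0.84 ± 0.37 (SE), with a limma p of 0.0394 and an adjusted p of 0.64. Zap70, the kinase of that receptor, read 5.79, 5.83 and 6.63 in control and 5.43, 5.29 and 5.07 in DIO (difference -0.82 ± 0.32, SE). Cd8a, the coreceptor of killer T cells, overlapped: 7.40, 7.90 and 8.05 against 7.01, 7.53 and 6.97 (difference -0.61). Cd3d overlapped as well, with a difference of -0.77 ± 0.45 (SE), while Skap1, an adaptor of T cell adhesion, did not overlap (4.31 to 5.01 against 4.05 to 4.30). List levels were 0.10, -0.07 and 0.65 in control and -0.17, 0.06 and -0.61 in DIO, with control replicate 3 the highest and DIO replicate 3 the lowest. The median was -0.20 without control replicate 3, -0.25 without DIO replicate 3 and -0.66 without DIO replicate 2.

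Markers of cytotoxic and NK cells were lower in 18 of 20, and the median was -0.26. At an unadjusted p under 0.05 were 2, both lower (10%, near the 7.74% of all genes, with 3.44% in this direction), again a small count. In the lower direction 5 had no overlap, against 4.95% of all genes. The lowest p in the list was that of a transcription factor. Gfi1, a transcription repressor of blood cell development, read 4.55, 4.47 and 4.24 in control and 3.69, 3.77 and 3.50 in DIO. The difference was -0.77 ± 0.14 (SE), with a limma p of 0.000137 and an adjusted p of 0.33. Gfi1 was dim, with DIO values near the array medians of 3.65 to 3.75. The other of the 2 members was Xcl1. Ctsw, a protease of killer cells, read 6.70, 6.90 and 7.36 against 6.47, 6.59 and 5.95, and Tbx21, the transcription factor T-bet, read 4.44, 4.49 and 5.03 against 4.40, 4.14 and 4.04. Ifng, interferon gamma, was dim at 3.49 to 3.75 and 3.17 to 3.35. Gzmb, granzyme B, and Prf1, perforin, differed by -0.03 ± 0.54 and -0.07 ± 0.31 (SE). Without control replicate 3 the list median was 0.06, so that 1 array set the direction of the list, and without DIO replicate 3 it was -0.09.

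Genes of the regulatory T cell and checkpoint list lay on both sides of 0. Havcr2, the inhibitory receptor TIM-3 that is also made by macrophages and dendritic cells, was higher: 6.61, 6.27 and 6.78 in control and 7.17, 7.21 and 7.34 in DIO (difference 0.69 ± 0.18, SE, adjusted p 0.59). Tox, the transcription factor of exhausted T cells, was lower by 0.64 with overlap. B and plasma cell markers were lower in 11 of 14 (median -0.22), and Tnfrsf17, the plasma cell receptor BCMA, and Jchain, the antibody joining chain, did not overlap, although both were dim (2.49 to 2.97 against 2.05 to 2.48, and 3.18 to 4.18 against 2.61 to 2.84). Ighm, the antibody heavy chain, overlapped. With array width in the model the list median was 0.19, and without control replicate 1 it was -0.10. Of the 18 measured macrophage markers 11 were higher, with a median of 0.07 (-0.01 without control replicate 2).

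Of 32 measured chemokine ligands 9.38% were at an unadjusted p under 0.05, near the 7.74% of all genes. Cxcl2, which attracts neutrophils, read 3.63, 3.26 and 2.89 in control and 3.95, 4.03 and 4.06 in DIO (difference 0.75 ± 0.25, SE), at dim levels. Cxcl14 overlapped (5.78, 7.0 and 7.68 against 8.61, 8.11 and 7.02, difference 1.09). Of 25 measured interferon-induced genes 17 were higher, with a median of 0.07 that was -0.11 without DIO replicate 2, -0.02 without control replicate 2, 0.18 without control replicate 3 and 0.27 without DIO replicate 3. The 2 members at an unadjusted p under 0.05, Trim30a and Oasl2 (8.77 to 8.86 against 8.88 to 9.50), make 8%, near the 7.74% of all genes. Hpgd, which inactivates prostaglandins, read 7.23, 6.61 and 7.14 in control and 6.09, 6.35 and 6.20 in DIO, without overlap and with a difference of -0.78 ± 0.31 (SE). Ptgs2, the inducible prostaglandin synthase, overlapped (difference 0.41 ± 0.35, SE).

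Host tissue differed more between single tumors than between the groups. Fibroblast and collagen genes had list levels of 0.55, -0.95 and 0.04 in control and 0.89, 1.02 and -1.13 in DIO. DIO replicates 1 and 2 were rich in these genes, and DIO replicate 3 and control replicate 2 were poor. Several genes with a large mean difference followed the same 2 DIO tumors. Ccl11, the chemokine eotaxin, read 7.24, 7.71 and 4.74 in DIO against 4.67 to 5.61 in control, and Folr2, a folate receptor of resident macrophages, read 7.88, 8.59 and 4.09 against 4.90 to 5.25. Cd163, a scavenger receptor (5.81, 6.40 and 4.03 in DIO, 4.09 to 4.70 in control), and Acta2, smooth muscle actin (9.61, 9.49 and 7.55, 7.98 to 8.27), had the same shape. None of these 4 genes reached an unadjusted p of 0.05, and none kept its groups apart.

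Adipocyte levels were -1.18, 1.47 and -0.39 in control and 0.73, 0.16 and -0.63 in DIO, so the richest of the 6 tumors was lean. Adipoq, adiponectin, read 3.84, 6.78 and 4.81 in control and 6.01, 5.62 and 4.25 in DIO, and Lep, leptin, read 3.23, 5.84 and 3.64 against 6.92, 5.35 and 4.42 (difference 1.33 ± 1.20, SE). Skeletal muscle levels ran from -1.07 to 1.44 in control and from -1.10 to 1.86 in DIO. Mast cell and eosinophil levels were 0.19, -0.43 and 1.06 in control and 0.39, -0.06 and -0.80 in DIO. Cpa3, a mast cell protease, spanned 7.14 to 10.90 in control and 5.23 to 9.97 in DIO, and the list median of -0.46 was 0.10 without DIO replicate 3 and 0.01 without control replicate 3. The part of these tissues in the other differences was not tested.

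**Figure D3:**
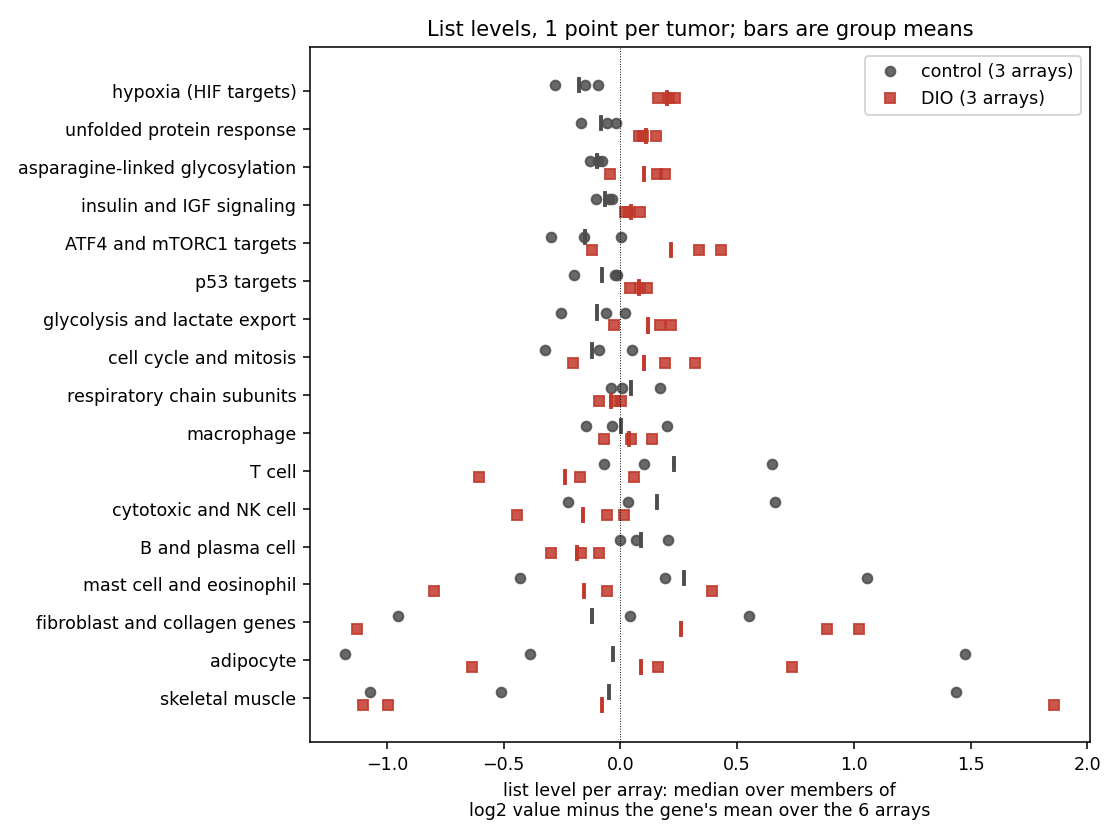
List level of each of the 6 tumors (x axis, log2 units, 0 being the mean of each gene over the 6 arrays) for 17 lists. Circles are control, squares DIO and bars group means: hypoxia runs from -0.28 to -0.10 in control and 0.16 to 0.24 in DIO, while fibroblast levels run from -0.95 to 0.55 and from -1.13 to 1.02 and skeletal muscle levels reach 1.44 and 1.86.

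The same diet difference was measured in the arrays of mice that received HMB, which share no sample with the comparison above. Between DIO + HMB and control + HMB, 0 genes passed (lowest adjusted p 0.46) and 633 genes (2.85%) were at an unadjusted p under 0.05, 207 higher (0.933%) and 426 lower (1.92%). The groups did not overlap for 282 genes (1.27%) in the higher and 680 (3.07%) in the lower direction. Over all genes the differences of both comparisons correlated at Pearson r = 0.07 and Spearman rho = 0.04, a description across genes, which are not independent. Of the 664 genes that were higher in DIO with an unadjusted p under 0.05 and no overlap, 43.4% were also higher in DIO + HMB, against 44% of all genes, and 8 (1.2%) were so at an unadjusted p under 0.05. Of the 520 lower genes 61.3% were lower in DIO + HMB, against 56% of all genes, and 22 (4.23%) were so at an unadjusted p under 0.05, against 1.92%. Without DIO replicate 3 the share of higher genes also higher under HMB was 58.6%, and without control + HMB replicate 2 it was 54.9%. The interaction of diet and HMB, which tests whether the diet difference itself differed, passed for 0 genes (lowest adjusted p 0.93), with 1068 genes (4.82%) at an unadjusted p under 0.05.

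**Figure D4:**
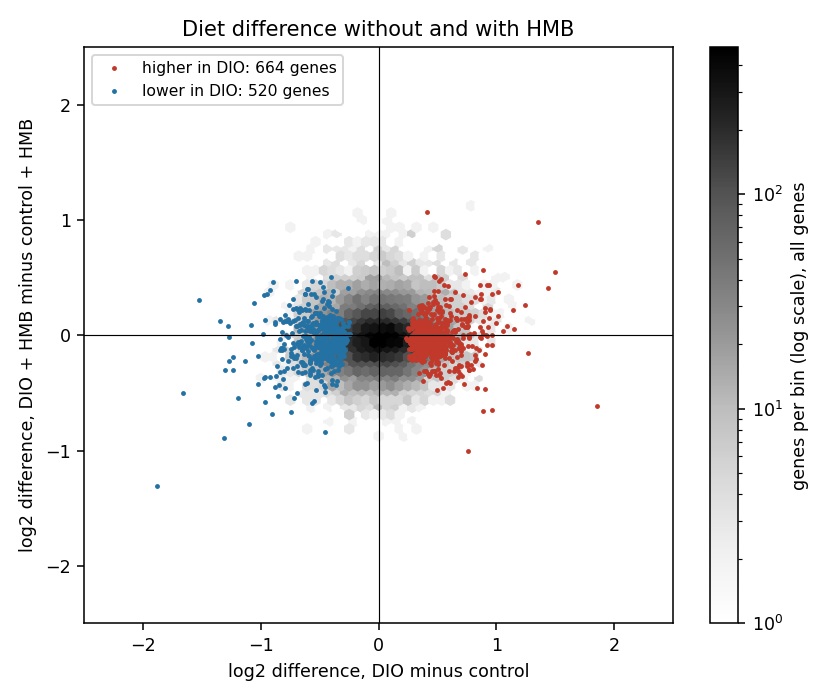
Log2 difference of DIO minus control (x axis) against DIO + HMB minus control + HMB (y axis) for 22180 genes, with gray bins for all genes. Colored points are the 664 genes higher and the 520 genes lower in DIO at an unadjusted p under 0.05 without overlap, and 43.4% and 61.3% of them lie on the same side of 0 on the y axis.

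Xcl1 and Pcdh17 were lower in obese mice both without and with HMB. Xcl1 read 6.41, 6.78 and 6.75 in control + HMB and 5.65, 6.00, 6.09 and 5.79 in DIO + HMB, a difference of -0.77 ± 0.18 (SE) with a limma p of 0.000831 and an adjusted p of 1.00. On the arrays, all 7 obese tumors were thus below all 6 non-obese tumors for Xcl1. The gene was chosen because its control and DIO arrays did not overlap, so only the arrays with HMB add to that separation. Pcdh17 read 5.50, 5.83 and 5.45 in control + HMB and 5.14 to 5.37 in DIO + HMB (difference -0.36 ± 0.14, SE). Trim30a was higher in the HMB-fed obese mice too (4.01 to 5.02 against 5.05 to 5.40), and Adgrf1 was lower by 0.89 with overlap. Bnip3 differed by 0.44 ± 0.22 (SE) under HMB, close to its 0.56 without.

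Several other genes had a difference near 0 or of the other sign under HMB: -0.16 for Kctd21, -0.09 for Lpcat4 and Jag1, 0.00 for Banp and -0.02 for Gfi1. Lpcat4 had means of 8.95 in control + HMB and 8.85 in DIO + HMB, and its DIO values of 9.43 to 9.57 were above those of every other tumor. Kctd21 had means of 5.59 and 5.44 under HMB against 3.92 in control and 5.19 in DIO, so the 3 control tumors lay below all others. The same placing was found for Jag1, with means of 7.82 and 7.73 under HMB, and for Banp, with 7.01 and 7.01. Gfi1, which was dim, had means of 3.94 in control + HMB and 3.92 in DIO + HMB, both below its control mean of 4.42. P4ha1 had means of 7.99 and 7.82, between its control and DIO values, and Sorbs3 of 8.23 and 8.02. The interaction had an unadjusted p of 0.00038 for Kctd21, 0.000864 for Lpcat4, 0.00097 for Jag1 and 0.00211 for Gfi1, and each had an adjusted p of 0.93. These placings rest on the same control and DIO arrays that chose the genes.

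As lists, the hypoxia, unfolded protein response, ATF4 and glycosylation genes had medians of 0.00, -0.05, -0.03 and -0.05 between DIO + HMB and control + HMB. In each, 0 members were at an unadjusted p under 0.05 in either direction. In control + HMB, levels were 0.145, 0.177 and 0.139 for glycosylation and 0.019, 0.056 and 0.133 for the unfolded protein response, above all control tumors. Hypoxia (-0.141, 0.327 and 0.064) and ATF4 levels (-0.075, -0.163 and 0.115) in control + HMB overlapped those of control. T cell genes had a median of 0.14 between DIO + HMB and control + HMB, and 13 of 17 were higher in DIO + HMB. Their list levels were 0.58, 0.98 and -0.08 in control + HMB and 1.60, 0.06, 0.34 and 0.25 in DIO + HMB. DIO + HMB replicate 1 was thus far above the other obese tumors, which lay within the range of control + HMB. Whether a list differed between both comparisons was not tested.

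**Figure D5:**
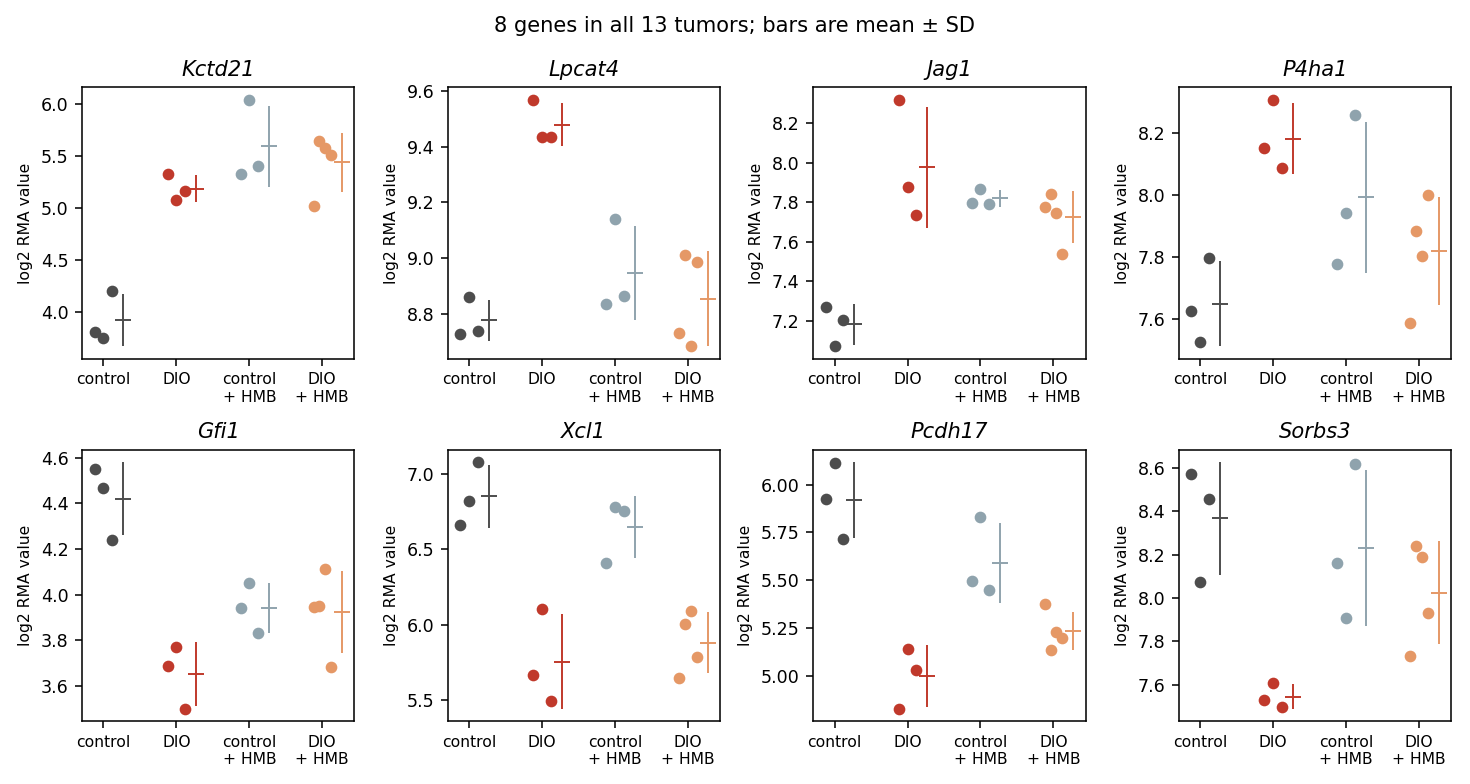
Log2 RMA values (y axis) of 8 genes in all 13 tumors by group, with mean ± SD beside the points. Xcl1 and Pcdh17 are lower in both obese groups, while the DIO values of Lpcat4 lie above all other tumors and the control values of Kctd21 and Jag1 below them.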

How the data were processed

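Affymetrix Mouse Gene 2.1 ST arrays read the total RNA of 13 homogenized tumors. The deposited values are log2 intensities that the authors made with RMA, which corrects background, quantile normalizes the arrays and summarizes probes. RMA, affy and limma are named in the submitters' processing notes. Versions of these and a genome build: not given in the sources used here. Quantile normalization makes the arrays alike in distribution, so a shift shared by most genes would not be seen.

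Of 41345 probe sets 23521 carried 1 gene symbol, 1820 several and 16004 none here, and the first were kept. For the 1082 genes with several probe sets the one with the highest mean over the 13 arrays was used, which left 22180 genes, 22139 of them found by symbol in RefSeq. No gene was removed for low signal. Promoters came from RefSeq (GRCm38.p6).

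Group means of all 13 arrays were fitted with limma 3.58.1 in R 4.3.3 (lmFit, eBayes, 9 residual degrees of freedom) with two-sided tests. Benjamini-Hochberg adjustment ran over all genes, and genes passed at 0.05. Simulated data with known differences were used to check the script. Every "unadjusted p" is from this fit. The replicates are different mice.

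The comparison, the 47 gene lists (885 of their genes were measured) and the tests were chosen with earlier results of these data known, so lists are described by counts and medians and carry no test. Named genes are the 8 of lowest p and the 8 of largest difference in each direction among genes with an unadjusted p under 0.05, no overlap and a mean of at least 5 in the higher group (predicted genes and large families skipped, 34 genes), and the leading members and key members of lists, some of which were left out for length. Some further list members, Trp53rkb, Fas and the genes in the other observations were named after their values were seen. The labels do not say that a replicate number pairs tumors, and the main fit used no pairing. Deviations of control and DIO arrays correlated at -0.03, -0.13 and -0.18 for equal numbers and at -0.146 to 0.235 for unlike numbers. With so few arrays, these values cannot tell whether a number marks a shared batch. The alternatives were the 6 arrays alone, array width as a covariate, median centering, leaving out dim genes, the mean of probe sets, a trended robust eBayes, the t statistic named in the methods, a replicate block and leaving out each array. With 3 arrays a group, their number limits the precision.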

Additional observations from a re-analysis of the deposited data

Results flagged for a closer look

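In the group of 4 DIO + HMB tumors, single arrays stood apart from the other 3 for 11 of the 111 named genes, by Dixon's ratio. Chance alone gives about 1 such case in 20 groups, and genes of the same tumors are not independent. DIO + HMB replicate 1 was the high one for Cd3e (10.26, others 8.69 to 8.85), Ctsw (7.89, others 6.79 to 6.98), Ighm (11.27, others 9.23 to 9.57), Fas (6.96, others 6.41 to 6.48) and Sec61b (4.01, others 3.7 to 3.75), and the low one for Gja1 (7.41, others 7.74 to 7.79). Cd3e and Ctsw are genes of T cells and killer cells and Ighm of B cells. DIO + HMB replicate 2 was high for Folr2 (8.15, others 6.10 to 6.43) and low for Slc2a1 (7.62, others 8.42 to 8.58). DIO + HMB replicate 3 was low for the clock gene Per1 (7.76, others 9.16 to 9.17) and for Vegfa (8.06, others 8.59 to 8.67), and replicate 4 for the clock output gene Dbp (7.27, others 7.77 to 7.83). These arrays do not enter the means of DIO and control. Groups of 3 arrays were not tested in this way.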

How the results depend on the processing

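No gene passed the adjusted threshold in DIO against control, in DIO + HMB against control + HMB or in the interaction under any alternative that was run. The counts at an unadjusted p under 0.05 in DIO against control moved from 955 higher and 762 lower to 622 and 529 with the 6 arrays alone, to 477 and 875 with arrays centered on their median, and to 762 and 288 with dim genes left out, a setting with fewer genes. The t statistic of the methods gave 666 and 528 with 0 passing. Leaving out dim genes also gave 1307 genes without overlap, 176 genes at that p under HMB, 557 for the interaction, and 66.5% of lower genes also lower under HMB. That last share was 65.6% with median centering. The share of higher genes also higher under HMB was 47.9% with array width as a covariate and 38.8% with a replicate block. The cause of these shifts was not tested.

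With the replicate number as a block, 0 genes passed and 855 were higher and 643 lower at an unadjusted p under 0.05, and no other call changed. Leaving out single arrays gave 2436 to 5616 genes without overlap (4164 or more with only 2 arrays in 1 group, where no overlap is easier to reach), 37.2% to 58.6% of higher genes also higher under HMB, and 54.1% to 67.0% of lower genes also lower. Named genes that changed sign without 1 array were Igf1r (-0.002 to 0.107, and -0.012 with median centering), Adipoq (-0.497 to 0.97), Gzmb (-0.699 to 0.325), Prf1 (-0.334 to 0.214) and Cpa3 (-2.20 to 0.17). Of the 111 genes compared, 106 kept their direction under all alternatives run and 0 passed in any. Leaving out an HMB array or dim genes, or fitting control and DIO arrays alone, keeps the group means and cannot change a direction. The same holds for the trended robust eBayes and the t statistic, and the replicate block left the list medians unchanged. For genes without overlap, leaving out a control or DIO array cannot reverse the direction either. The count of 106 was thus largely fixed in advance. With 3 arrays a group and a median SE of 0.19, small differences are within the error of most genes, and dim genes lie near background.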

Other observations

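Per1 and Tsc22d3, both among the genes with a large difference, led to other genes of the clock and of the glucocorticoid response, which were chosen after their values were seen, carry no test as a group and are given as values. Dbp, a transcription factor that the clock drives, read 6.56, 7.51 and 7.06 in control and 8.35, 7.62 and 7.93 in DIO (difference 0.92 ± 0.32, SE). Klf9, a factor induced by glucocorticoids, read 6.87, 6.56 and 6.84 in control and 7.82, 7.47 and 7.13 in DIO (difference 0.72 ± 0.24, SE), and Sgk1, a kinase induced by them, read 7.01, 6.37 and 7.09 in control and 7.41, 7.13 and 7.59 in DIO (difference 0.55 ± 0.18, SE). Cry1, a clock repressor, differed by 0.53 ± 0.23 (SE), Fkbp5, a co-chaperone of the glucocorticoid receptor, by 0.58 ± 0.28 (SE), and Arntl, the clock activator BMAL1, by -0.45 ± 0.24 (SE). No gene of these passed the adjusted threshold.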
